A study of Mus musculus with 8 samples.

Results

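The genes described here belong to the machinery that releases neurotransmitter from synaptic vesicles. They were chosen by name, and the names were chosen with earlier results of these data known. No gene was kept or left out by its own measured difference. The names cover the synaptotagmins (Syt), syntaxins (Stx), syntaxin-binding proteins (Stxbp), SNAP proteins (Snap), vesicle-associated membrane proteins (Vamp), names that begin with Rab3, Rims, Unc13, complexins (Cplx), synapsins (Syn), Sv2 and Syp. Of the 21165 gene rows counted, 87 matched these names, and the 78 with at least 80 reads summed over the 8 libraries were kept. The members nearest above that minimum were Rab32 with 84 reads and Rab39 with 87, and the nearest below were Cplx3 with 62 and Rab37 with 57. Among the 9 left out, Stx19 and Vamp5 had no read at all. All members but Syt12, which had 111 reads in total, passed edgeR's filter on low counts, so 77 members were tested.

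In the best known form of this machinery, a vesicle carries the SNARE protein synaptobrevin, encoded by Vamp2, and the plasma membrane carries syntaxin 1 and SNAP-25. These proteins zip into a bundle that pulls both membranes together. Munc13 (Unc13a, Unc13b) helps to assemble the bundle, RIM and Rab3 hold the vesicle at the active zone, complexin binds the assembled bundle, and synaptotagmin 1 triggers fusion when calcium enters. In the cortex shortly before birth synapses are only starting to form, and several of these proteins also serve membrane addition in growing axons.

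The cortex of 4 Nuak1 KO embryos was compared with that of 4 WT embryos at E18.5, with 1 embryo per library. NUAK1 is a kinase related to AMPK, the cell's energy sensor. The KO is constitutive, so every cell of the embryo lacked Nuak1 from the start, and these animals die at birth. The labels give 2 males and 2 females among the KO embryos, 1 male and 3 females among the WT embryos, and 3 litters, but the columns of counts name only the genotype and a running number, so no library was tied to a sex or a litter. Libraries are called by that genotype and number, as in WT R4. The p-values therefore measure the spread between single embryos, whatever litter and sex add to it.

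Libraries held from 11027082 to 27014858 counts in KO and from 9643711 to 18940484 in WT, the smallest being WT R4. Normalized counts are counts scaled by TMM to the mean effective library size. Nuak1 had between 11.1 and 20.5 normalized counts in KO and between 877 and 1445 in WT, so each column followed its label. The cortical markers Tbr1 and Neurod6 were read in every library, with at least 1149 and 5608 normalized counts. A list of 8 meningeal fibroblast markers summed to between 334 and 10323 normalized counts in KO, the highest being KO R1, and to between 270 and 382 in WT. In that list Aldh1a2 and Slc6a13 were at 0 in some libraries, and the 5 markers tested were called higher in KO with 8 libraries, by 2.77 to 3.70 on the log2 scale. Without KO R1 they ran from -0.41 for Ptgds to 0.58 for Col1a1, which alone kept its call. The 9 projection neuron markers summed to between 23200 and 25966 in KO and between 16989 and 22754 in WT. Of these markers 2 were called higher in KO, Cux1 among them, and 2 lower, Bcl11b and Fezf2. Cux1 lost its call without WT R4, at 0.248, and without WT R2, at 0.240 on the log2 scale. In whole cortex, fewer cells of a type and less RNA per cell cannot be told apart, and this holds for every member below.

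The letters of the names also take in genes with other work. Of the 78 members, 11 share letters with a release family without belonging to it: genes named between Rab30 and Rab39, which are Rab proteins other than Rab3, and Snap91, which encodes the clathrin assembly protein AP180. A further 10 are SNAREs of inner compartments, such as the endosomal Stx7, Stx8 and Stx12 and the Golgi proteins Stx5a and Stx6. The remaining 57 comprise 7 vesicle proteins, 5 vesicle SNAREs, 7 plasma membrane SNAREs, 5 syntaxin-binding proteins, 2 complexins, 15 synaptotagmins, 8 priming and active zone proteins, and 8 Rab3 proteins and regulators. Within them, 16 genes of the classical release step form a core list, among them Sv2a, Syn1, Syn2, Syp, Vamp1, Vamp2, Snap25, Stx1a, Cplx1, Cplx2, Syt1, Rims1, Unc13a and Rab3a.

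Levels between genes were compared as CPM, counts scaled to the library total, per kilobase of exon, averaged over the 8 libraries. The exon length was the union of all exons annotated for a gene, so levels between genes depend on annotated length as well as on reads. Per length Snap25 lay well below Snap47, while by counts Snap25 divided by Snap47 averaged 0.690 in KO and 0.897 in WT. Per length, the members differed widely in level at E18.5. Rab3a, the GTPase of synaptic vesicles, was the highest member with 91.8, and Syt5 stood at 84.5. The endosomal Stx7 with 78.0 and the broadly expressed SNAP relative Snap47 with 75.2 were also among the highest, and the library ranges of Rab3a and Syt5 overlapped, as did those of Stx7 and Snap47. Syt12 was the lowest member with 0.17.

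In several families the genes differed widely per length. Vamp2 stood at 22.4 and Vamp1, the synaptobrevin more typical of brainstem and spinal cord, at 0.41. Unc13a (Munc13-1) stood at 33.2, Unc13b (Munc13-2) at 8.46 and Unc13c, the Munc13 of the cerebellum, at 1.40. Among the classical calcium sensors Syt1 stood at 21.4, while Syt2, its hindbrain counterpart, stood at 0.19, and both lay below Syt5. Cplx1 at 18.2 and Cplx2 at 13.5 were nearer to each other, and Stx1a stood at 33.1. Snap25 reached 20.5 ± 1.28 (SD, n = 4) with Nuak1 absent, against 26.0 ± 2.03 (SD, n = 4) for WT.

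**Figure D1:**
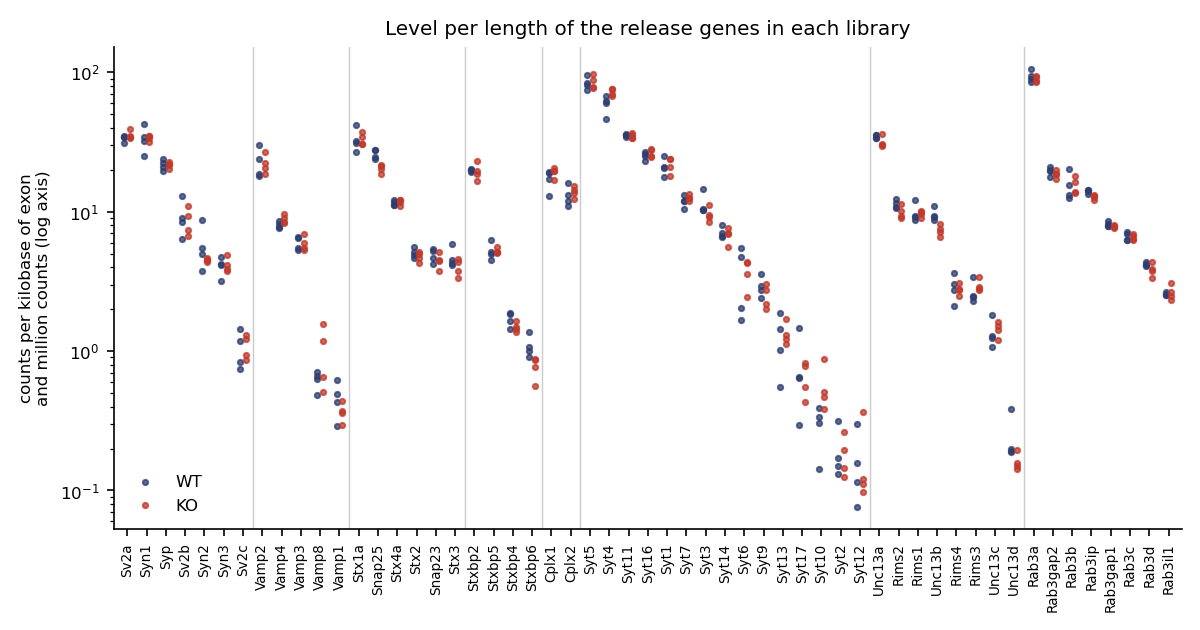
Each point is 1 library, and the vertical log axis gives CPM per kilobase of exon for the members of the release families, grouped by role and ordered by level within a role. Rab3a and Syt5 sit at the top and Syt2 and Syt12 at the bottom, while KO and WT points overlap for most genes. Snap25, Unc13b, Stxbp6 and, narrowly, Rab3ip are among those that separate.

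The question put to these genes is whether loss of Nuak1 altered the RNA of the release apparatus. The study's thresholds ask for a log2 fold change larger than 0.25 in size together with p under 0.05 before adjustment. With them, edgeR's quasi-likelihood test called 5 of the 77 members tested. Over all 12699 genes tested, 4.25% were called. The called members were Snap25, Unc13b and Stxbp6, lower in KO, and Syt4 and Syt10, higher in KO. The background is 1.8% of genes called lower and 2.45% called higher. A p under 0.05 at any size of change was reached by 8 members, or 10.4%, where all genes gave 7.69%. After Benjamini-Hochberg adjustment over all genes, edgeR left 0 members under 0.05, the smallest value being 0.224 for Snap25, where 0.0709% of all genes passed. DESeq2 on the same counts called 4 members at the study's thresholds, against 3.85% of all genes, and put Snap25 and Unc13b under an adjusted p of 0.05, as it did 0.638% of the genes it adjusted.

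Most members differed little between the genotypes. Log2 fold changes were above 0 for 37 members and below 0 for 40, with a median of -0.01, the same as over all genes tested. Of the 77, 67 lay within 0.25 of 0 on the log2 scale, or 87.0%, where 86.4% of all genes did. The 95% intervals of 58 members stayed within 0.5 on either side of 0. KO and WT libraries did not overlap for 5 members, or 6.49%, where 4.49% of all genes had no overlap. Snap25, Unc13b, Stxbp6 and Rab3ip lay lower in KO, where 1.85% of genes did, and Stx8 lay higher, where 2.64% did.

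**Figure D2:**
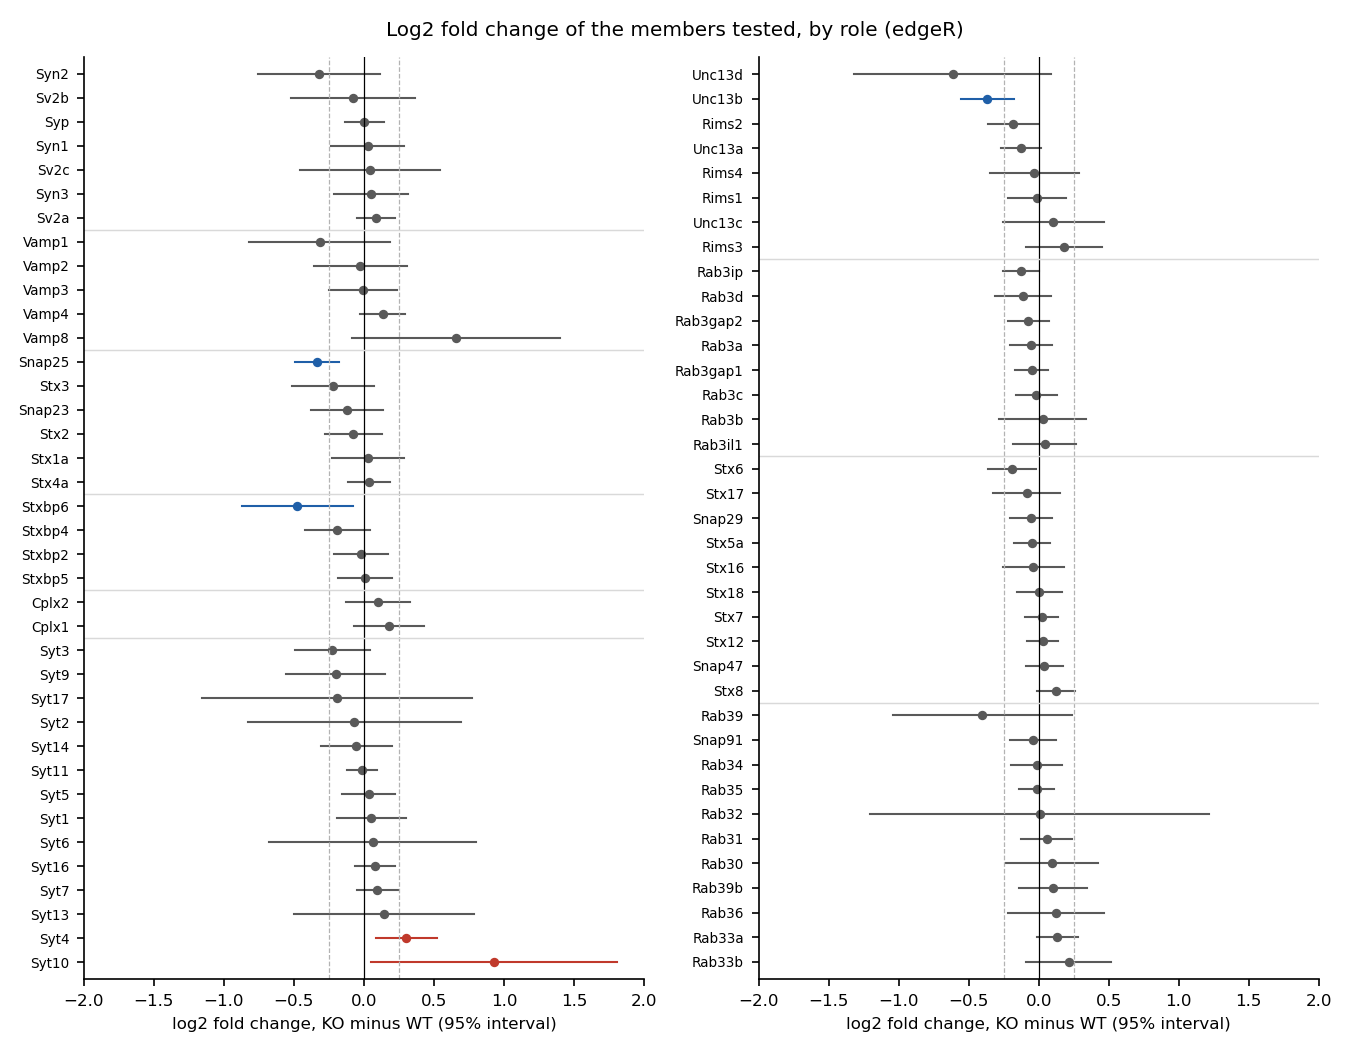
The horizontal axis gives the log2 fold change of 75 of the members tested, KO minus WT, with its 95% interval from edgeR, grouped by role, and dashed lines at 0.25 on either side of 0. Snap25, Unc13b and Stxbp6 are drawn in blue as lower in KO, Syt4 and Syt10 in red as higher, and the other 70 members in grey.

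Snap25 encodes the plasma membrane SNARE that adds a pair of helices to the fusion bundle, and it lies on chromosome 2 from 136539189 to 136608164, plus strand, of NCBIM37. The KO libraries R1 to R4 had 2076, 2430, 2438 and 2276 normalized counts and the WT libraries R1 to R4 had 2789, 3119, 2662 and 3072. Every KO library lay below every WT library. The mean fell from 2911 ± 221 (SD, n = 4) in WT to 2305 ± 170 (SD, n = 4) in KO, which is -0.34 as log2 fold change (SE 0.07, 95% interval -0.49 to -0.18). Its unadjusted p was 0.000564 with edgeR, the rank of 32 among all genes tested. The adjusted p was 0.224 with edgeR and 0.0075 with DESeq2, and ranged from 0.0075 to 0.693 over the 13 alternatives. Snap25 was called in 8 of 8 fits that left out 1 library, with log2 fold changes from -0.37 to -0.28. With WT R2 and WT R4 both left out it was -0.23 (unadjusted p = 0.00856 with edgeR), short of the fold threshold.

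Ratios between members within a library remove the scaling of that library. Snap25 divided by its relative Snap47 averaged 0.690 ± 0.0509 (SD, n = 4) across KO libraries and 0.897 ± 0.0625 (SD, n = 4) across WT libraries, with no overlap. Divided by Vamp2, the vesicle partner, the ratio averaged 1.69 in KO and 2.12 in WT and the libraries overlapped. These ratios were chosen after the values were seen and were not tested.

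The other SNAREs of the plasma membrane did not pass the thresholds. Stx1a, with 1329, 1533, 1361 and 1648 normalized counts in KO and 1422, 1178, 1374 and 1807 in WT, had a log2 fold change of 0.03 (95% interval -0.23 to 0.29). Another 4, Stx2, Stx3, Stx4a and Snap23, which serve exocytosis in many cell types, lay between -0.22 and 0.03. On the vesicle side, Vamp2 was at -0.03 (95% interval -0.36 to 0.31), with KO libraries from 1192 to 1658 and WT libraries from 1148 to 1861. Vamp1 was at -0.32 (unadjusted p = 0.194 with edgeR) from at most 87.8 normalized counts. Vamp8, a SNARE of late endosomes and secretory granules, had the highest value of the vesicle SNAREs, 0.66 (unadjusted p = 0.0771 with edgeR), with 58.9 and 45.2 normalized counts in KO R1 and KO R4 and no more than 27.2 elsewhere.

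Unc13b encodes Munc13-2, which opens syntaxin 1 and so makes vesicles ready for fusion, and it lies on chromosome 4 from 43071825 to 43277745, plus strand, of NCBIM37. It had 1463, 1852, 1696 and 1588 normalized counts in the KO libraries and 2056, 1967, 2446 and 2044 in the WT libraries. No KO library reached the lowest WT library. The KO mean of 1650 ± 165 (SD, n = 4) stood against a WT mean of 2128 ± 215 (SD, n = 4), and the log2 fold change was -0.37 (SE 0.09, 95% interval -0.56 to -0.18). The unadjusted p was 0.00126, and the adjusted p was 0.313 with edgeR, 0.018 with DESeq2, and between 0.018 and 0.754 over the 13 alternatives. Unc13b passed the study's thresholds in 8 of 8 fits that left out 1 library, with values from -0.41 to -0.29, and with WT R2 and WT R4 both left out, at -0.44.

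No other gene of the priming and active zone group passed the thresholds. Unc13a, which primes most vesicles of the forebrain, had 4183, 4418, 4258 and 5117 normalized counts in KO and 5006, 4828, 4801 and 4969 in WT. KO R4 was the highest of all libraries and the other KO libraries the lowest, and the log2 fold change was -0.12 (95% interval -0.27 to 0.02, unadjusted p = 0.0838 with edgeR). Unc13b divided by Unc13a averaged 0.369 ± 0.049 (SD, n = 4) across KO libraries and 0.435 ± 0.0498 (SD, n = 4) across WT libraries, with overlap. Rims2, a scaffold that ties Rab3 vesicles to calcium channels, was at -0.19 with unadjusted p = 0.0433 in edgeR and so had too small a change for the fold threshold. Rims1, its close relative, was at -0.01 (95% interval -0.22 to 0.19). In all, 6 of the 8 genes of this group lay below 0, as did 6905 of the 12699 genes tested, and 1 was called. The group's median was -0.08 with 8 libraries and -0.01 without WT R4.

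Among the syntaxin-binding proteins, Stxbp6 was called lower. It encodes amisyn, a protein with a SNARE-like coil that binds syntaxin 1 and SNAP-25, and it lies on chromosome 12 from 45953475 to 46175480, minus strand, of NCBIM37. It had 69.2, 45.6, 62.5 and 68.8 normalized counts in KO and 86.3, 80.6, 72.7 and 108 in WT. The groups did not overlap, but the nearest libraries, KO R1 and WT R3, were 69.2 and 72.7. The log2 fold change was -0.48 (SE 0.18, unadjusted p = 0.0237, adjusted p = 0.611 with edgeR, 0.436 to 0.919 over the 13 alternatives). It was called in 6 of 8 fits that left out 1 library, and had -0.36 without WT R4 (unadjusted p = 0.0683 with edgeR) and -0.36 without KO R2 (unadjusted p = 0.0658). The group as a whole had 1 member above 0 and 4 below.

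The 250 bases before the RefSeq start of Unc13b and Stxbp6 are shown as members called lower that have a window in the promoter table used, and those of Syn1 because this was the only member with a full cAMP response element. All are from RefSeq on GRCm38.p6, which is not the build of the counts, and capitals mark a motif. The region of Unc13b is chr4:43058703-43058952 on the plus strand, that of Stxbp6 chr12:45074484-45074733 on the minus strand, and that of Syn1 chrX:20920919-20921168 on the minus strand.
Unc13b: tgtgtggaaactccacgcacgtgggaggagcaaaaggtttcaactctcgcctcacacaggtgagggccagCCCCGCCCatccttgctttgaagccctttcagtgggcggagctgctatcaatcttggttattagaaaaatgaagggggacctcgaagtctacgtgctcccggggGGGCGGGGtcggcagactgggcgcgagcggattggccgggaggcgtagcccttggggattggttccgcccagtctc
Stxbp6: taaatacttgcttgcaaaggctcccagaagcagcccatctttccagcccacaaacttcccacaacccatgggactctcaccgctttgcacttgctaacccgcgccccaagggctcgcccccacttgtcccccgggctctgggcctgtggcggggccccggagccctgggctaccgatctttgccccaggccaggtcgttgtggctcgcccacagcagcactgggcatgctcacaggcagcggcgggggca
Syn1: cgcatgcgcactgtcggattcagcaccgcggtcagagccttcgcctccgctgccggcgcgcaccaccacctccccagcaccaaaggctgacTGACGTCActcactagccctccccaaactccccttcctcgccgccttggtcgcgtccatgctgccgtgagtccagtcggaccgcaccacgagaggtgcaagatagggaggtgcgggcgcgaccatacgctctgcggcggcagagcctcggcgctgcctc

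A window of this kind was found for 61 of the 78 members and for 8813 of the genes tested, and motifs were searched as letters on both strands. The GC box GGGCGGGG, bound by Sp1-like factors, was in 30 of the 61 member windows, or 49.2%, and in 35.2% of the windows of all genes tested. Unc13b held it at positions 71 and 175, counted from the 5′ end of the window, and Stxbp6 held none of the motifs searched. The cAMP response element TGACGTCA was in the window of Syn1 alone, or 1.64% of members, against 3.22% of all genes. The letters CAGATG, an E-box of proneural factors, were in 7 member windows, or 11.5%, against 11.8%. The core of NRSE, the element bound by the repressor REST, was in 0 member windows and 0.0454% of all. Only exact matches to its letters were counted, and just 4 of the 8813 windows held one. Near matches, such as one in the window of Syn1, were not counted, so this search cannot tell whether members lack the element. A match in these letters is a description of the window and not evidence of a bound site.

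The calcium sensors gave both members called higher. Syt4, a synaptotagmin of dense core vesicles and the Golgi with weak calcium binding, lies on chromosome 18. It had 4346, 4950, 4563 and 4913 normalized counts in KO and 3881, 3017, 4385 and 3954 in WT. The groups overlapped by 1 pair of libraries, since WT R3 lay above KO R1, and WT R2 was the lowest of all. The log2 fold change was 0.30 (SE 0.10, 95% interval 0.09 to 0.52, unadjusted p = 0.0107, adjusted p = 0.533 with edgeR, 0.169 to 0.916 over the 13 alternatives). It was called in 7 of 8 fits that left out 1 library and was 0.20 (unadjusted p = 0.0119 with edgeR) without WT R2, under the fold threshold. Divided by its relative Syt11, which likewise binds little calcium, Syt4 averaged 1.55 ± 0.0409 (SD, n = 4) across KO libraries and 1.25 ± 0.189 (SD, n = 4) across WT libraries, without overlap. Divided by Syt1, Syt4 averaged 1.58 ± 0.137 (SD, n = 4) across KO libraries and 1.32 ± 0.156 (SD, n = 4) across WT libraries, and the libraries overlapped. Exons of Gm16871 lie over Syt4 on the other strand, and whether reads were counted by strand is not given in the sources used here.

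Syt10, a calcium sensor of growth factor vesicles in the olfactory bulb, was read at low counts. It had 14.1, 27.4, 11.8 and 15.5 normalized counts in KO and 9.25, 4.38, 11.9 and 10.1 in WT. KO R2 stood apart at the top, and KO R3 lay just below WT R3. The log2 fold change of 0.93 had an SE of 0.40 (unadjusted p = 0.0398, adjusted p = 0.633 with edgeR, 0.395 to 0.969 over 10 alternatives), and the call held in 4 of the 7 fits that left out 1 library and could test it. It was lost with DESeq2 (unadjusted p = 0.0629), without KO R2 (0.68), without WT R2 (0.65) and without WT R1 (0.97).

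Syt1, the sensor of fast release, had 2442, 3333, 2918 and 3292 normalized counts in KO and 2860, 2451, 2885 and 3388 in WT. The groups overlapped fully, and the log2 fold change was 0.05 (95% interval -0.19 to 0.30). Syt5, Syt7 and Syt11, all at 1217 normalized counts or more in each library, were at 0.03, 0.09 and -0.01. The lowest value of the family was that of Syt3, a high-affinity sensor, with -0.23 (unadjusted p = 0.0902 with edgeR). Of the 14 synaptotagmins tested, 8 lay above 0 and 6 below. Syt12, not tested, had from 9.12 to 33.3 normalized counts in KO and from 7.01 to 27.0 in WT.

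**Figure D3:**
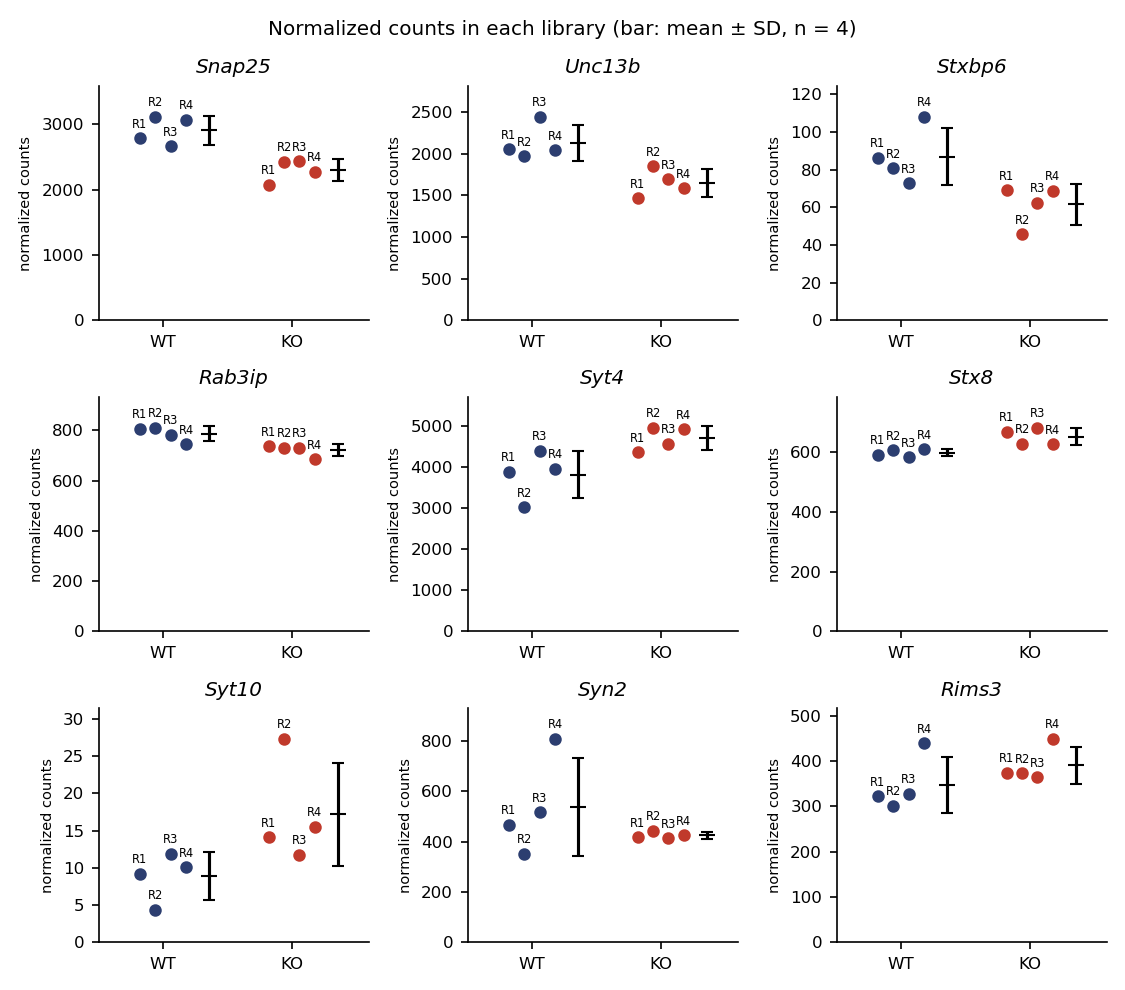
Each panel gives the normalized counts of 1 gene in the 4 WT and 4 KO libraries, named by their number, with the mean and SD as a bar beside them, on an axis that starts at 0. Snap25, Unc13b, Stxbp6 and Rab3ip are lower in every KO library, Stx8 is higher in every KO library, and in Syn2 and Rims3 library WT R4 stands above the other WT libraries.

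Complexins, Rab3 proteins and vesicle proteins held no called member. Cplx1 was at 0.18 (95% interval -0.07 to 0.43), with KO libraries from 619 to 734 and WT libraries from 470 to 687, the lowest being WT R3. Cplx2, the complexin more typical of excitatory forebrain neurons, was at 0.10 (95% interval -0.13 to 0.33). Rab3a was at -0.05 (95% interval -0.20 to 0.10) from 3144 to 3839 normalized counts, with exons under Mpv17l2 on the other strand. Of the 8 Rab3 genes and regulators, 6 lay below 0, all within 0.13 of it.

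The lowest of that group was Rab3ip, which encodes Rabin8, an exchange factor that acts on Rab8. It had 737, 731, 731 and 685 normalized counts in KO and 807, 811, 783 and 745 in WT, so the groups did not overlap. The log2 fold change was -0.13 (unadjusted p = 0.0492, adjusted p = 0.646 with edgeR), too small for the study's fold threshold. Stx8, a SNARE of late endosomes, was the member that lay higher in every KO library, with 669, 628, 683 and 626 normalized counts in KO and 592, 607, 584 and 610 in WT. Its log2 fold change was 0.12 (unadjusted p = 0.0665, adjusted p = 0.684 with edgeR), and a gene on the other strand, RP23-25D18.6, lies over its exons. Among the other SNAREs of inner compartments, Stx6 of the trans-Golgi had the lowest value, -0.19 (unadjusted p = 0.0325 with edgeR), and the 10 together were split into 5 above and 5 below 0. The 11 genes taken by their letters only held no called member and ran from -0.40 for Rab39, with no more than 15.2 normalized counts, to 0.21 for Rab33b.

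Among the vesicle proteins, Sv2a, a glycoprotein of all synaptic vesicles, was at 0.08 (95% interval -0.05 to 0.22) and Syp, synaptophysin, at 0.00 (95% interval -0.14 to 0.14). Syn1, which tethers vesicles in the reserve pool, was at 0.03 (95% interval -0.23 to 0.29), and Syn3, the synapsin of young neurons, at 0.05. Syn2 had 418, 444, 413 and 426 normalized counts in KO and 467, 352, 518 and 809 in WT. The KO libraries lay close together, while the WT libraries lay on both sides of them, with WT R4 farthest away. The log2 fold change of Syn2 was -0.32 with 8 libraries (unadjusted p = 0.134 with edgeR), -0.06 without WT R4 and -0.48 without WT R2 (unadjusted p = 0.0145), where it was called.

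WT R4 and WT R2 stood apart in this way across the core list. Library WT R4 was the highest of the WT libraries in 41 of the 77 members, or 53.2%, and in 11 of the 16 core genes, where it was the highest in 34.7% of all genes tested. Library WT R2 was the lowest of the WT libraries in 28 members, or 36.4%, and in 9 of the 16 core genes, against 24.9% of all genes. As log2 deviations from each gene's mean over 8 libraries, the core genes had a median of 0.23 in WT R4 and -0.13 in WT R2. The KO libraries lay between -0.08 and 0.08. Within KO, library KO R3 was the lowest in 8 of the 16 core genes, against 18.9% of all genes. Library KO R4 was the highest KO library in 7 of the 16, against 22.5% of all genes. The members took from 0.502% of all counts, in WT R2, to 0.581%, in WT R4.

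Some marker lists also stood apart in WT R4. Of the 9 progenitor markers, 6 were lowest of the WT libraries in WT R4, Eomes among them with 375 normalized counts where the other WT libraries had 852 to 1229. The other 3, Sox2, Hes5 and Fabp7, were highest of the WT libraries there, Hes5 with 255 where the others had 109 to 149. The list summed to between 24455 and 29765 in KO and between 24972 and 33904 in WT, and none of its markers was at 0 in any library. Of the 8 astrocyte and oligodendrocyte markers, 7 were highest of the WT libraries in WT R4, Gfap among them with 546 where the others had 106 to 228. Those markers summed to between 4442 and 5337 in KO and between 4042 and 6662 in WT. The 5 red blood cell markers and 6 of the 9 projection neuron markers were lowest of WT in WT R4, and 5 of the 7 microglia markers were highest. Interneuron markers were split, with 4 of 9 highest of WT in WT R4 and 2 lowest, and of 8 endothelial markers 2 were highest and 1 lowest. Over all genes tested, WT R4 was the lowest WT library in 34.3% and the highest in 34.7%. The part of these differences in the values of the members was not tested.

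**Figure D4:**
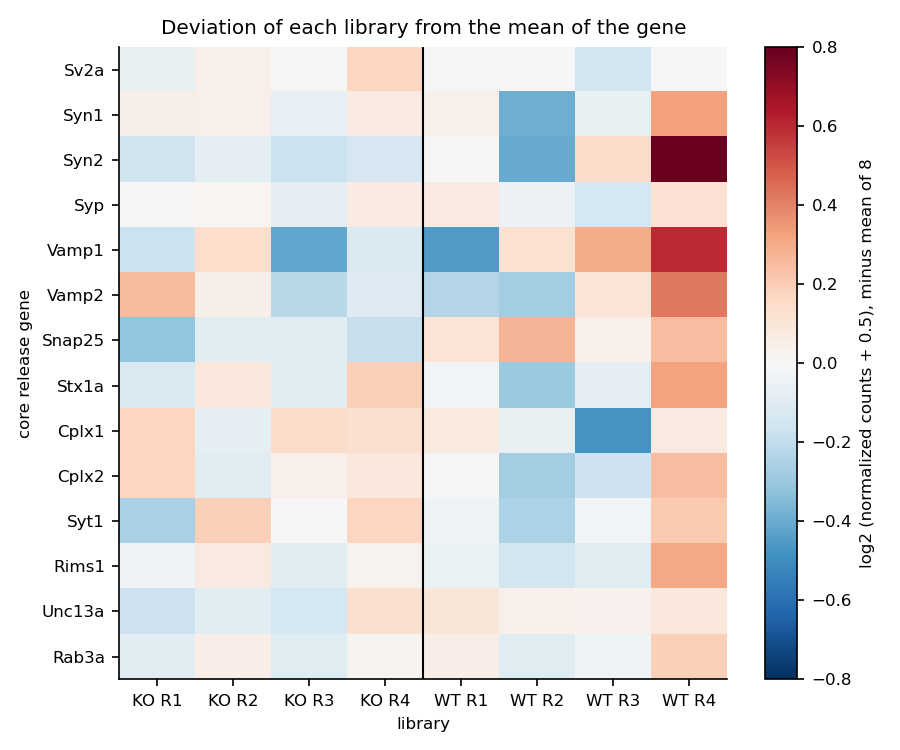
Each cell is the log2 of normalized counts plus 0.5 of a core gene in a library, minus its mean over the 8 libraries, in blue below and red above that mean. The column of WT R4 is red for nearly all of the 14 genes drawn and that of WT R2 blue for most, while in the row of Snap25 all KO cells are blue and all WT cells red.

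The direction of the core list turned with these libraries. With 8 libraries, 8 core genes lay above 0 and 8 below, with a median log2 fold change of -0.01. Without WT R4, 12 of 16 lay above 0 with a median of 0.10, and without WT R2, 4 of 16 lay above 0 with a median of -0.07. Rims1, Vamp2 and Rab3a were among those that went from below to above 0 without WT R4, and Syn1, Stx1a, Syt1 and Syp from above to below without WT R2. Snap25 was the only core gene called in both of these fits, with -0.30 in each. Unc13a was at -0.11 and -0.13, and Sv2a at 0.10 in both.

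Without WT R4, 5 members passed the study's thresholds, 3 higher and 2 lower, where 6.57% of all genes passed, 4.13% higher and 2.44% lower. The higher ones were Syt4, Syt10 and Rims3 and the lower ones Snap25 and Unc13b. Rims3, which encodes a short RIM protein, had 374, 373, 364 and 449 normalized counts in KO and 322, 301, 328 and 439 in WT. The highest library of each genotype was R4, and the log2 fold change was 0.18 with 8 libraries (unadjusted p = 0.175 with edgeR), 0.31 without WT R4 (unadjusted p = 0.00798) and 0.11 without WT R2. Without WT R2, 4 members passed, 0 higher and 4 lower, where 4.93% of all genes passed, 2.32% higher and 2.61% lower. These were Snap25, Unc13b, Stxbp6 and Syn2. Snap25 and Unc13b were the members called in every fit that left out a single library.

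**Figure D5:**
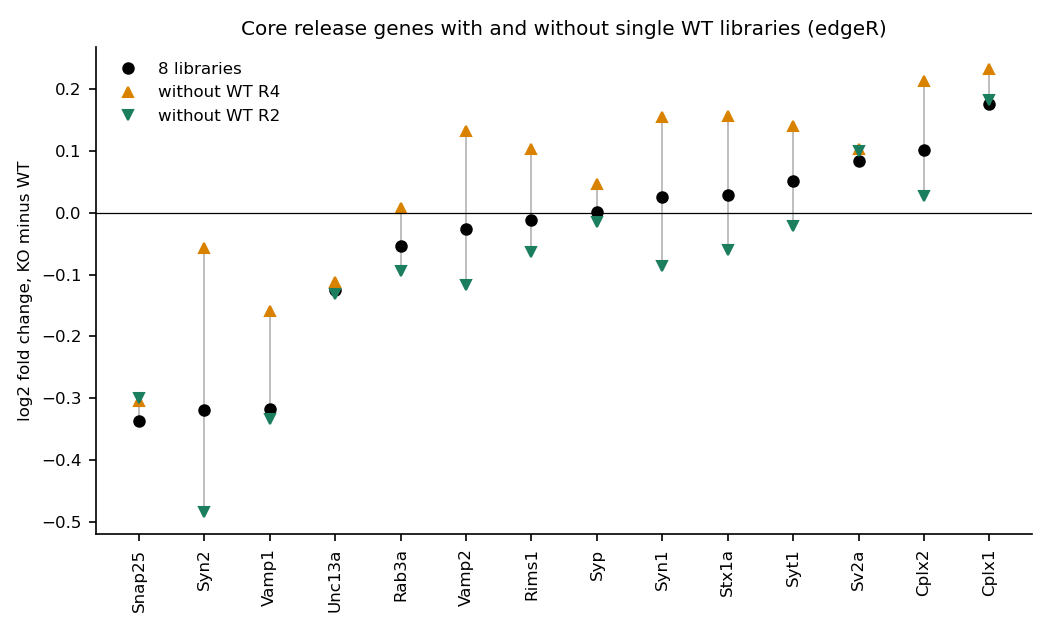
For 14 core genes on the horizontal axis, ordered by its value, the vertical axis gives the log2 fold change, KO minus WT, from edgeR with 8 libraries, without WT R4 and without WT R2. Most genes lie above 0 without WT R4 and below 0 without WT R2, while Snap25 stays near -0.3 in all 3 fits.

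For 6 of the core genes, Rab3a, Rims1, Sv2a and Syp among them, the 95% interval with 8 libraries stayed within 0.25 of 0. For the 15 core genes other than Snap25 the intervals spanned -0.82, for Vamp1, to 0.43, for Cplx1. A change of that size in the widest of them is not excluded by 4 embryos per genotype.

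Other genes of the vesicle cycle, taken from a list by role, were read beside the members. Of 72 genes in the table, 69 were tested, and 1 was called higher and 2 lower, against the 2.45% and 1.8% of all genes given above. Log2 fold changes lay above 0 for 30 and below 0 for 39, with a median of -0.02. Dnm3, a dynamin that pinches off vesicles in endocytosis, had 1353, 1382, 1448 and 1468 normalized counts in KO and 1243, 1179, 1131 and 1140 in WT. All KO libraries lay above all WT libraries, with a log2 fold change of 0.27 (SE 0.05, unadjusted p = 0.000466, adjusted p = 0.210 with edgeR and 0.00475 with DESeq2), called in 7 of 8 fits that left out 1 library.

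Both genes called lower lost the call in several fits that left out 1 library. Doc2b, a calcium sensor of spontaneous release, had 192, 204, 156 and 231 normalized counts in KO and 244, 217, 226 and 424 in WT, with a log2 fold change of -0.49 (unadjusted p = 0.0405 with edgeR) that became -0.22 without WT R4 and was called in 4 of 8 such fits. Slc18a2, the vesicular monoamine transporter, had 21.8, 24.3, 14.9 and 15.5 in KO and 43.2, 16.6, 22.5 and 69.3 in WT, at -0.98 (unadjusted p = 0.0402 with edgeR) and -0.57 without WT R4, called in 3 of 8 such fits. Cadps, which primes dense core vesicles, just missed the fold threshold at -0.25 (unadjusted p = 0.00915 with edgeR), with the highest WT value again in WT R4. None of the 4 genes of SNARE disassembly, nor of the 16 active zone scaffolds, passed both thresholds.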

How the data were processed

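PolyA RNA was prepared with the TruSeq Stranded mRNA kit and sequenced as 100 bp paired-end reads. Cutadapt 1.13 and Prinseq 0.20.4 served for trimming (Phred quality 20, minimum length 25 bp), TopHat2 2.0.13 with SAMtools 0.1.19 for mapping to mm9, and HTSeq-count for counting per gene. The authors deposited whole-number counts without normalization. The HTSeq strand setting is not given in the sources used here. It is not known whether reads of 19 members whose exons lie under a gene on the other strand were told apart from that gene's. Near-identical copies may lose counts. The table held 0 unused per-library columns.

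All rows were fitted, KO against WT without covariates, by the quasi-likelihood test of edgeR 4.0.16 in R 4.3.3 after TMM scaling and filterByExpr, and p-values were Benjamini-Hochberg adjusted over all 12699 genes tested. The fit was tested on simulated data. Alternatives were DESeq2 1.42.0, the tool of the authors, its size factors within edgeR, low counts left unfiltered, a minimum of 10 counts per library, each library left out, and WT R2 and WT R4 left out together. No pair of libraries of a genotype agreed within sampling noise (smallest chi-square per degree of freedom 5.92). Positions and exon lengths came from GENCODE annotation on NCBIM37 (mm9).

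The members and lists were chosen with earlier results of these data known. Named by rule are the core genes, members called with 8 libraries, without WT R4 or without WT R2, members without overlap, up to 3 other vesicle cycle genes in each direction, and Nuak1. Other members are named as the lowest or highest of a family or for comparison, and with Cadps and the markers were chosen after their values were seen. Ratios were not tested, for the same reason. Some genes counted among the members and markers are not reported here by name.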

Additional observations from a re-analysis of the deposited data

Results flagged for a closer look

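Among 84 groups of 4 libraries examined for a library far from the rest, 6 passed Dixon's 95% critical value, where about 4.2 would do so by chance. KO R4 was the lowest for Rab3ip, with 685 normalized counts where the other KO libraries had 731 to 737, so it added to the gap from WT. KO R4 was also the highest for Rims3, with 449 where the others had 364 to 374. WT R3 was the lowest for Sv2a, with 2373 where the other WT libraries had 2620 to 2646. WT R4 was the highest for Doc2b, with 424 where the others had 217 to 244. KO R1 had a median log2 deviation of 4.18 over the meningeal fibroblast markers, and the other KO libraries lay below 0. The ratio of Unc13b to Unc13a reached 0.509 in WT R3, where the others had 0.408 to 0.411. Without KO R1, the library with the meningeal markers, Snap25 had a log2 fold change of -0.28 (unadjusted p = 0.0021 with edgeR) and Unc13b of -0.31 (unadjusted p = 0.00399). Why these libraries lay apart was not tested.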

How the results depend on the processing

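No paired analysis was possible because litters in the labels could not be tied to columns that name only genotype and number, so no replicate block was fitted. Snap25 and Unc13b stayed lower in KO under all 13 alternatives, and Snap25 lost its call in 1 of them, -0.23 on the log2 scale without WT R2 and WT R4. The number of members higher in KO went from 2 to 1 with DESeq2 and to 1 with at least 10 counts in every library, since Syt10 was then not called or not tested. The number under an adjusted p of 0.05 went from 0 to 2 with DESeq2. Without both WT R2 and WT R4, 3 members passed instead of 5, 1 of them higher, 5 other vesicle cycle genes passed instead of 3, and Rims1 and Vamp2 turned to 0.08 and 0.06. The cause of these shifts was not tested. Leaving out 1 library at a time gave 4 to 6 called members, 0 to 3 higher and 2 to 5 lower, and 1 to 7 other vesicle cycle genes. In those fits the log2 fold change ranged from -0.063 to 0.10 for Rims1, from -0.12 to 0.13 for Vamp2, from -0.060 to 0.16 for Stx1a, from -0.037 to 0.047 for Syp, from -0.087 to 0.16 for Syn1, from -0.021 to 0.14 for Syt1 and from -0.095 to 0.0080 for Rab3a. None of these 7 genes was called in either fit. The median over all members stayed between -0.03 and 0.03 in every alternative. The smallest library held 9643711 counts, and members such as Syt10, Syt12, Rab32 and Rab39, at few counts each, could show only large changes.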
